A study of Mus musculus with 11 samples.

Results

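The 10 genes described here encode transcriptional repressors of the Hes and Hey families and the Id proteins: Hes1, Hes5, Hes6, Hey1, Hey2, Heyl, Id1, Id2, Id3 and Id4. They were found by symbol in a table of 39179 genes, and all 10 had a row. Hes and Hey proteins are basic helix-loop-helix (bHLH) factors that bind DNA and recruit co-repressors, and several of their genes are switched on by the activated Notch receptor through its DNA-binding partner RBPJ. Id proteins have the helix-loop-helix but no basic region, so they bind E proteins without binding DNA and keep them from pairing with proneural bHLH factors. Id1, Id2 and Id3 are known targets of bone morphogenetic protein (BMP) signalling through Smad proteins. In the neonatal germinal zone members of both groups of repressors, though not Hes6, are known for holding neural stem cells and glial progenitors undifferentiated.

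RNA was taken from the V-SVZ (ventricular-subventricular zone), a neurogenic region lining the lateral ventricles, in CD1/Swiss mice at postnatal day 2. Both groups carried Gsh2-Cre and the RCE reporter, which turns on GFP after recombination, and GFP-positive cells were sorted from papain-treated tissue. The 5 mutant libraries had the genotype Gsh2-Cre; Zeb2fl/KO, with 1 floxed and 1 null allele; Zeb2 encodes a zinc finger repressor of transcription. The 6 control libraries had the genotype Gsh2-Cre; Zeb2fl/wt, with 1 floxed and 1 wild-type allele. Because the controls also carried Cre, the comparison sets cells expected to keep no Zeb2 allele against cells expected to keep 1, and the null allele of the mutants was present outside this lineage too. No label says whether a library came from 1 animal or several, so p-values measure the spread between libraries.

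Libraries held 6833981 to 13073505 counts. Zeb2 itself, counted over the whole gene, stood at 303 ± 63.8 CPM in the libraries labelled mutant (SD, n = 5) against 238 ± 46.7 CPM in controls (SD, n = 6; edgeR adjusted p = 0.294), so it was not lower there. The count includes reads from outside the deleted part and so does not check the genotype. CPM is the count per 1e6 counts of a library, scaled here by TMM factors, which correct for RNA composition. All 5 mutant libraries and controls 4 and 5 had no counts of 4 Y-linked genes, while the other 4 controls had 763 to 2716, so sex was not balanced between the groups. None of 10 neuronal and none of 10 radial glial marker genes averaged under 1 CPM. The same held for 8 astrocyte and 7 oligodendrocyte precursor genes, while 4 of 6 ependymal genes averaged under 1 CPM. These levels alone do not identify the tissue.

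Among the members, Id2 rose in the mutants, to a mean of 125 CPM against 66.4 CPM in controls. In edgeR it was the 1 gene past the adjusted threshold of 0.05 among the 9 members that could be tested, and none was past it lower, with 2 negative members at an unadjusted p of 0.05. DESeq2 gave all 10 members an adjusted p and called 1 higher (Id2) and 2 lower (Hes1 and Id3). Over all genes it called 1211 of the 16465 with an adjusted p. Limma-voom called Id2 alone, and 648 of all 14104 genes. In edgeR 623 of the 14104 genes tested, or 4.42%, were past the threshold, 2.68% higher and 1.74% lower. A count of 1 in 9 therefore does not set the members apart. Id3 and Hes1 had lower means in the mutants, at 9.19 CPM against 18.4 CPM and at 2.78 CPM against 5.97 CPM, and neither passed in edgeR. At an unadjusted edgeR p of 0.05 Id2, Id3 and Hes1 passed, 3 of 9, against 17.3% of all genes. The median log2 fold change of the 9 members was -0.15, against -0.02 over all genes tested. For none of the 9 did the libraries of one group lie apart from all of the other, which was the case for 4.91% of all genes.

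**Figure D1:**
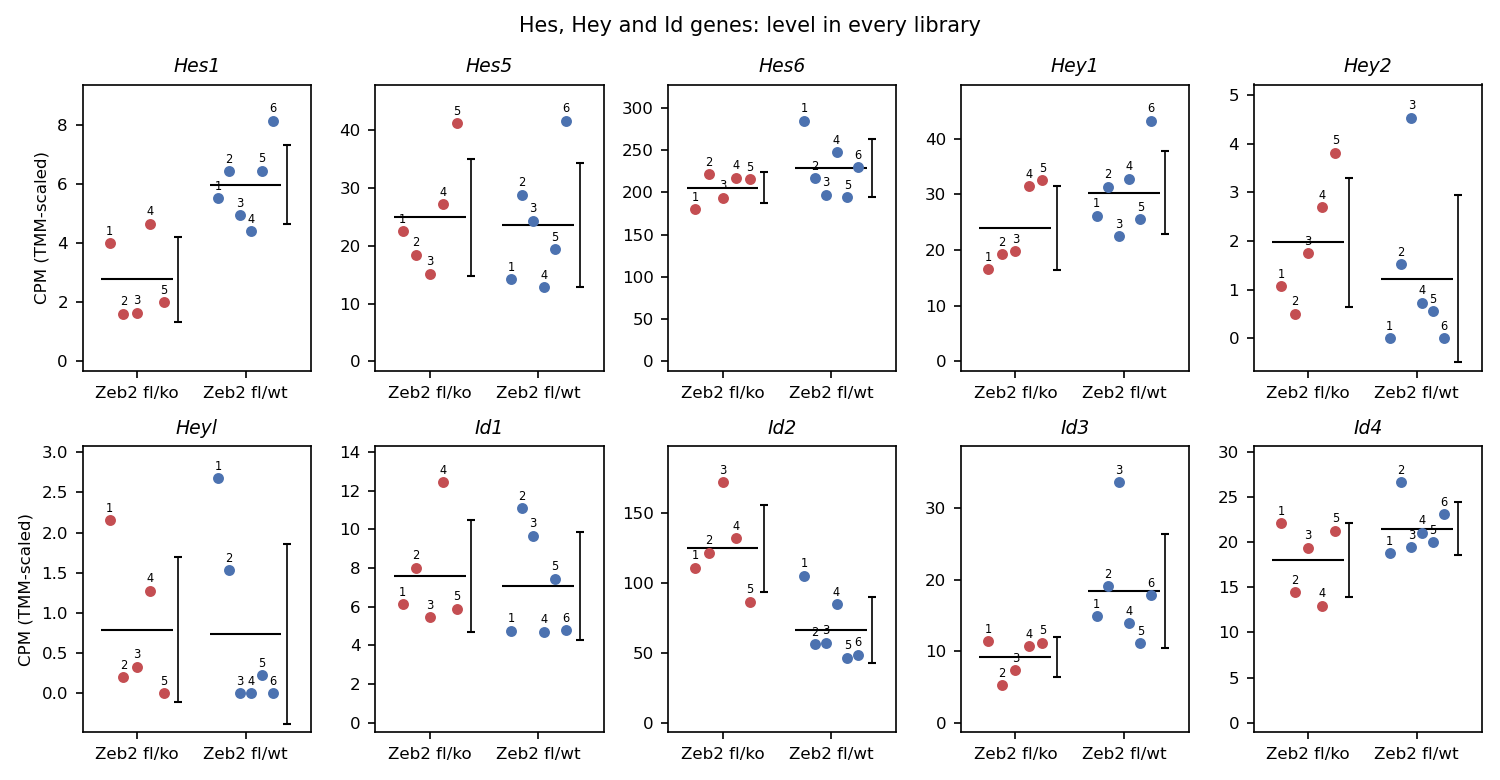
Level of each member in CPM (vertical axis, linear) in the 5 mutant libraries (Zeb2 fl/ko, left) and the 6 control libraries (Zeb2 fl/wt, right); points are libraries with their replicate numbers, lines are means and bars are SD. Id2 reached 86.5 to 172 CPM in mutants against 46.6 to 105 CPM in controls, whereas the groups overlapped widely for Hes5, Id1 and Hey2.

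Members differed widely in level. Levels of different genes are compared per exon length, as RPKM (CPM per kilobase of exons joined over all transcripts of a gene). Hes6, which encodes a Hes protein known to promote neuronal differentiation by opposing Hes1, was the highest in both groups, at 114 ± 9.98 RPKM in mutants (SD, n = 5) and 126 ± 18.9 RPKM in controls (SD, n = 6), and lay above Id2 in every library. Id2 came second, at 51.1 ± 12.9 RPKM in mutants and 27.2 ± 9.59 RPKM in controls, and Hes5 was the third, at 18.3 ± 7.45 and 17.3 ± 7.87 RPKM. The ranges of Id2 and Hes5 did not overlap in the mutants but did in the controls. Below them Hey1, Id1, Id3 and Id4 had means of 4.68 to 7.33 RPKM in mutants and 5.58 to 10.3 RPKM in controls, and each overlapped the next of these 4. Hes1 stood at 1.36 ± 0.706 RPKM in mutants and 2.93 ± 0.655 RPKM in controls, below Id4 in all libraries, and Hey2 and Heyl averaged under 0.5 RPKM in both groups.

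The Id genes come first. Id2 (ENSMUSG00000020644, chromosome 12, 25093799 to 25097140, minus strand, GRCm38) stood at 111, 122, 172, 132 and 86.5 CPM in mutant libraries 1 to 5. In controls it had a lowest value of 46.6, a median of 56.6 and a highest value of 105 CPM. Thus 4 of 5 mutant libraries lay above all controls, and 5 of 6 controls lay below all mutants; the overlap came from mutant 5 and control 1. The log2 fold change was 0.91 (SE 0.223, 95% interval 0.43 to 1.39, edgeR adjusted p = 0.0305), or 1.88-fold. In bulk RNA, a change in the number of cells of a type and a change in RNA per cell cannot be told apart.

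The call of Id2 did not hold in 11 of 25 other settings, although the log2 fold change stayed between 0.76 and 1.09 in all of them. It was lost in 8 of the 11 fits that left out 1 library, namely mutant 1, 2, 3 or 4 or control 2, 3, 5 or 6, with log2 fold changes of 0.76 to 0.95 and edgeR adjusted p from 0.0510 to 0.104. Among libraries without Y-linked counts, with controls 4 and 5 at 84.6 and 46.6 CPM, the log2 fold change was 0.93 (adjusted p = 0.196). With the Y-linked level as a covariate it was 0.91 (adjusted p = 0.292).

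At Id2, the bases of the RefSeq promoter window (GRCm38.p6) that lie outside the gene's GENCODE exons, though inside its annotated span, are shown because Id2 was the member past the threshold; capitals mark its E-box (CANNTG), the letters that E proteins and proneural bHLH factors bind. The stretch is chr12:25096254-25096342, read 5′ to 3′ on the minus strand.
Id2: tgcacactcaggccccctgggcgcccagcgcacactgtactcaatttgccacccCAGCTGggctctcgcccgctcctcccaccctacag

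Id3 (ENSMUSG00000007872, chromosome 4, 136143497 to 136145755, plus strand) stood at 11.4, 5.22, 7.33, 10.7 and 11.2 CPM in mutant libraries 1 to 5. In controls its lowest value was 11.1, its median 16.4 and its highest 33.7 CPM, the last in control 3. Of the mutants 3 of 5 lay below all controls, and control 5 was the 1 control within the mutant range. The log2 fold change of -1.0 (SE 0.303, 95% interval -1.65 to -0.35) did not pass (edgeR adjusted p = 0.0819). It was -0.74 without control 3 and -0.44 among libraries without Y-linked counts (adjusted p = 0.169 and 0.707), while DESeq2 called it (-0.998, adjusted p = 0.0232).

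Id2 and Id3 thus had fold changes of opposite sign. Within each library, where scaling between libraries plays no part, Id2 CPM over Id3 CPM was 9.68, 23.3, 23.5, 12.3 and 7.72 in mutants 1 to 5, and 1.70 to 7.07 in the controls. The lowest mutant value, in mutant 5, lay just above the highest control value, in control 1. This ratio was chosen after the values were seen and is given with no test. Expressed as a share of the summed RPKM of the 4 Id genes, Id2 made up 67.8% to 83.6% in mutants and 42.1% to 71.4% in controls. Id3 made up 4.59% to 11.96% in mutants and 13.7% to 33.8% in controls. The level of Id2 enters the sum, so these shares are not independent, and the CPM of Id3 alone overlapped between the groups. The summed Id level averaged 67.4 ± 12.2 RPKM in mutants (SD, n = 5) and 49.2 ± 9.05 RPKM in controls (SD, n = 6), with overlapping ranges.

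**Figure D2:**
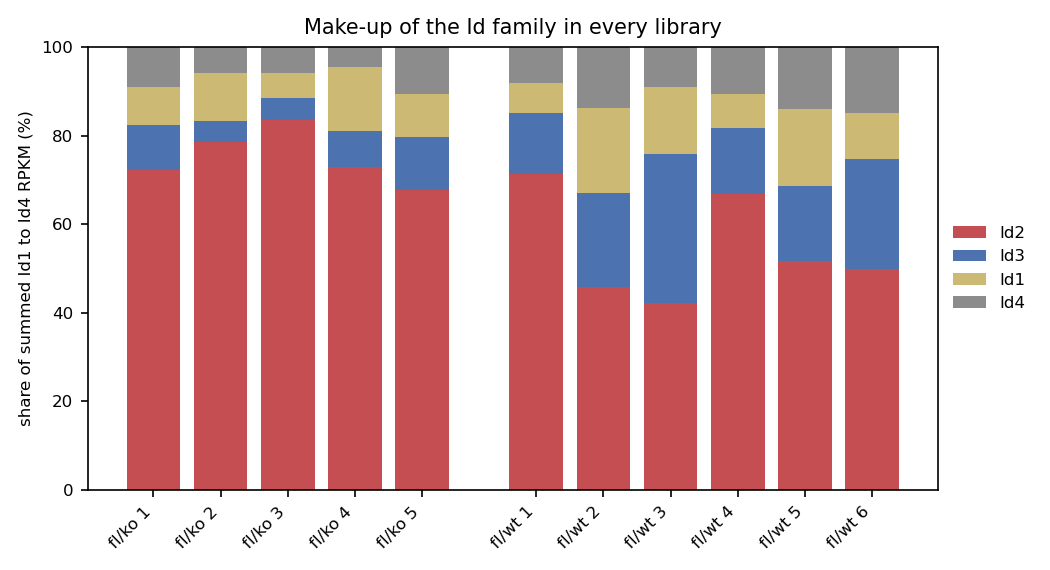
Share of the summed RPKM of Id1 to Id4 taken by each gene (vertical axis, percent) in each mutant library (fl/ko 1 to 5, left) and each control library (fl/wt 1 to 6, right). The Id2 share was lowest in control 3 at 42.1% and highest in mutant 3 at 83.6%, and control 1 at 71.4% was the 1 control within the mutant range.

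Id1 and Id4 gave no call. Id1 (chromosome 2) ranged from 5.47 to 12.4 CPM in mutants and from 4.70 to 11.1 CPM in controls, with a log2 fold change of 0.10 (95% interval -0.59 to 0.79, edgeR adjusted p = 0.92). Id4 (chromosome 13), which encodes an Id protein known for neural stem cell quiescence, ranged from 12.97 to 22.05 CPM in mutants and from 18.7 to 26.6 CPM in controls. Mutants 2 and 4 lay below all controls, and the log2 fold change was -0.26 (95% interval -0.67 to 0.15, edgeR adjusted p = 0.546). These intervals leave room for changes of more than 1.5-fold in at least one direction for both genes.

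Of the Hes genes, Hes1 (ENSMUSG00000022528, chromosome 16, 30064384 to 30067796, plus strand), the Notch effector that represses proneural genes, had 15 to 88 counts a library. It stood at 3.99, 1.61, 1.64, 4.65 and 1.99 CPM in mutants 1 to 5, and at 4.39, 5.97 and 8.13 CPM as the lowest, median and highest value in controls. All mutants but mutant 4 lay below all controls. The log2 fold change of -1.09 (SE 0.367, 95% interval -1.88 to -0.31) did not pass (edgeR adjusted p = 0.119); DESeq2 called it (-1.09, adjusted p = 0.0355). Among libraries without Y-linked counts it was -0.95 (adjusted p = 0.552).

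Hes5 (ENSMUSG00000048001, chromosome 4, 154960923 to 154962371, plus strand), another direct Notch target in neural progenitors, varied about as much within each group as over both. It stood at 22.5, 18.5, 15.2, 27.2 and 41.2 CPM in mutants 1 to 5 and had a lowest value of 12.9, a median of 21.9 and a highest value of 41.7 CPM in controls. The highest libraries were mutant 5 and control 6. The log2 fold change was 0.08 (95% interval -0.60 to 0.75, edgeR adjusted p = 0.933), and its sign turned when mutant 5, control 1 or control 4 was left out (-0.18, -0.03 and -0.04).

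Hes6 (chromosome 1) varied little between libraries, with a coefficient of variation of 8.78% in mutants and 14.9% in controls. It ranged from 180 to 222 CPM in mutants and from 194 to 285 CPM in controls. The log2 fold change was -0.15 (95% interval -0.40 to 0.09, edgeR adjusted p = 0.546), an interval that leaves out a change of 1.5-fold in either direction.

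Of the Hey genes, which act in vascular development and as Notch targets in progenitors, Hey1 (chromosome 3) ranged from 16.6 to 32.6 CPM in mutants and from 22.5 to 43.3 CPM in controls. Mutants 1, 2 and 3 lay below all controls and mutants 4 and 5 within their range, with a log2 fold change of -0.34 (95% interval -0.82 to 0.15, edgeR adjusted p = 0.486). Control 6 was the highest control for Hes1, Hes5 and Hey1 alike. Hey2 (chromosome 10) held 14, 5, 16, 36 and 46 counts in mutants 1 to 5 and 0, 19, 46, 7, 5 and 0 counts in controls 1 to 6, and its log2 fold change of 0.66 had a 95% interval of -1.29 to 2.61 (edgeR adjusted p = 0.778). Heyl (chromosome 4) held 28, 2, 3, 17 and 0 counts in mutants 1 to 5 and 18, 19, 0, 0, 2 and 0 counts in controls 1 to 6. Heyl did not pass the filter on low counts and was not tested in edgeR. DESeq2 gave it an adjusted p and did not call it.

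**Figure D3:**
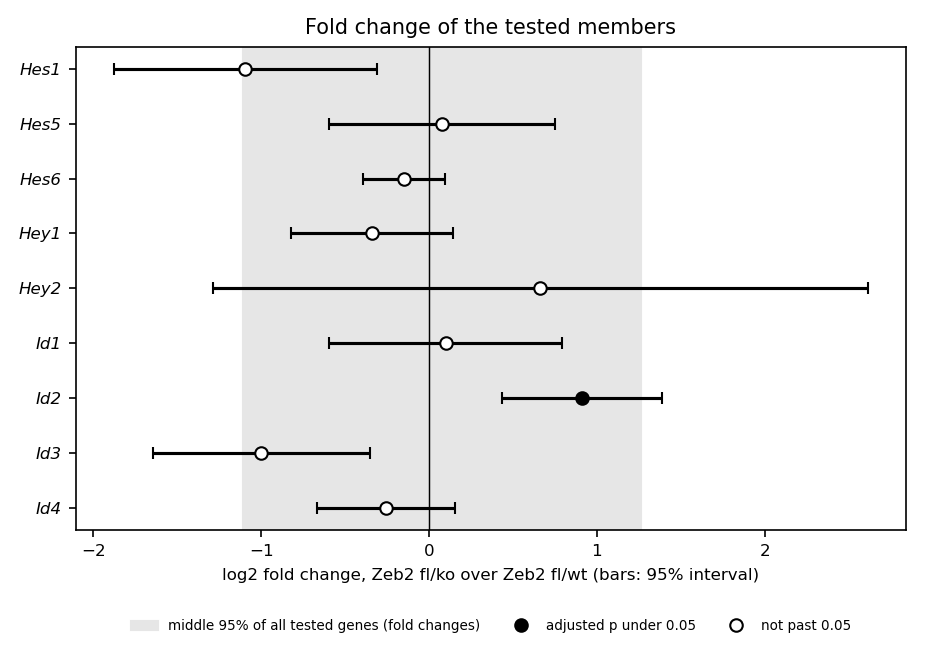
Log2 fold change of the 9 tested members, mutant over control (horizontal axis), with 95% intervals from the edgeR fit; the filled point is past an adjusted p of 0.05 and the grey band holds the middle 95% of all tested genes, from -1.11 to 1.26. Id2 alone is filled, at 0.91, and Hes1 and Id3 lie near the lower edge of the band.

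RefSeq promoter windows, from 250 bases before to 50 bases after a gene's start, matched 6 of the 10 members in 7 windows. The letters TGGGAA, bound by RBPJ, were searched on both strands and occurred in 25.6% of 32851 windows, among them those of Hes5 (2 matches), Hey2 (2 matches) and Id4 (1 match). CACCT, the letters bound by Zeb factors, which can lie inside an E-box, occurred in 51.9% of windows: once each in those of Id3, Hes5 and Hey2, in both windows of Hes6 (2 matches and 1), in that of Id4 (2 matches) and not in that of Id2. The N-box CACNAG, bound by Hes proteins, occurred in 42.5% and the E-box CANNTG in 72.3%. The window of Id3 lies wholly within an exon annotated by GENCODE, and 211 bases of the Id2 window lie in GENCODE exons. Matches are letters only and no binding was measured. Hes5 and Hey2 are shown as the windows with a pair of RBPJ matches, trimmed to the bases before the annotated exon, with the RBPJ letters on either strand in capitals; the stretches are chr4:154960673-154960922 on the plus strand and chr10:30842802-30843033 on the minus strand, where the second Hey2 match falls in the trimmed part.
Hes5: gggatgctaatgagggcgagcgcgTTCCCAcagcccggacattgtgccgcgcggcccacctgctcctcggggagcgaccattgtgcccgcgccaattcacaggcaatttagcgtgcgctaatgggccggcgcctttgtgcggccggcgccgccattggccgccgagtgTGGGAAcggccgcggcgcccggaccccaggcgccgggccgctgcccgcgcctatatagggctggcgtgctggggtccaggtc
Hey2: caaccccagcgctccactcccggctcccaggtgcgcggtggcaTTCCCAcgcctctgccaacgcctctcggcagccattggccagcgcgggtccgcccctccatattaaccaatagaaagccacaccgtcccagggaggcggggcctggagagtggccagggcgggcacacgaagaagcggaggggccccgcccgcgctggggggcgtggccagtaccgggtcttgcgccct

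Among 30 genes of the Notch pathway, all tested, 3 rose, 1 fell and 26 did not pass in edgeR, with a median log2 fold change of 0.04 against -0.02 over all genes. DESeq2 called 5 higher and 1 lower, adding the ligand gene Dll1 and the receptor gene Notch2, and limma-voom with library weights also added Dll1. Dlk1, a non-canonical ligand, rose to 9.59 ± 2.51 CPM in mutants (SD, n = 5) against 1.20 ± 0.372 CPM in controls (SD, n = 6; log2 fold change 2.98, edgeR adjusted p = 7e-05). Dll4, a Notch ligand best known from vessels, rose to 14.6 ± 5.27 CPM in mutants against 5.81 ± 1.25 CPM in controls (log2 fold change 1.32, edgeR adjusted p = 0.00805). Dner, a neuronal transmembrane protein related to Notch ligands, rose to 780 ± 174 CPM in mutants against 382 ± 48.3 CPM in controls (log2 fold change 1.03, edgeR adjusted p = 0.000375). Mfng, a glycosyltransferase that modifies Notch receptors, fell to 62.6 ± 7.50 CPM in mutants, against 145 ± 41.4 CPM in controls (log2 fold change -1.21, edgeR adjusted p = 0.000915). For each of these 4 all mutants lay apart from all controls, as was the case for 4.91% of all genes tested. In edgeR 13.3% of the 30 genes were past the threshold, against 4.42% of all genes. The list was chosen with earlier results of these data known. The receptors Notch1 and Notch2 had log2 fold changes of -0.42 and 0.66, and Rbpj of 0.29, none past the threshold in edgeR (adjusted p = 0.308, 0.0802 and 0.507). Among libraries without Y-linked counts Dlk1, Dner and Mfng stayed past the threshold and Dll4 did not (1.49, adjusted p = 0.133).

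None of the 20 tested genes of the BMP pathway, out of 27, was past the threshold in edgeR, with 1 at an unadjusted p of 0.05 and a median log2 fold change of 0.02. Limma-voom called 0 of the 20, and DESeq2 called 1 higher, Grem1, a BMP antagonist, among the 24 to which it gave an adjusted p. Grem1 held 48 counts over the 5 mutant libraries and 0 over the 6 controls, and did not pass the edgeR filter on low counts. Smad5, a transducer of BMP signals, averaged 149 ± 33.7 CPM in mutants (SD, n = 5) and 131 ± 19.0 CPM in controls (SD, n = 6; edgeR adjusted p = 0.606). Acvr2a, an activin and BMP receptor gene whose exons overlap Orc4 on the opposite strand, averaged 93.3 ± 10.4 CPM in mutants and 61.6 ± 28.8 CPM in controls (edgeR adjusted p = 0.23). It passed when control 5 was left out (log2 fold change 0.86, adjusted p = 0.0222).

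Of 9 tested genes of bHLH factors and E proteins, out of 14, Neurod1 rose and 8 did not pass in edgeR. This list shares Olig1 and Olig2 with the oligodendrocyte precursor list. Neurod1, a proneural factor gene, averaged 20.0 ± 9.92 CPM in mutants (SD, n = 5) and 4.76 ± 2.44 CPM in controls (SD, n = 6; log2 fold change 2.07, edgeR adjusted p = 0.0107). Among the Id partners, Tcf4 had a log2 fold change of 0.63, Tcf3 of -0.09 and Tcf12 of -0.22 (edgeR adjusted p = 0.154, 0.856 and 0.467). Of 11 tested co-repressors and relatives, out of 14, Tle2, a Groucho-family co-repressor of the kind Hes proteins recruit, rose to 53.2 ± 7.53 CPM in mutants, against 32.4 ± 6.15 CPM in controls (log2 fold change 0.71, edgeR adjusted p = 0.0189), and 10 did not pass in edgeR. DESeq2 also called Tle4 of the same family, lower (log2 fold change -0.73 in edgeR, adjusted p = 0.113). The call of Tle2 was lost without mutant 1 (0.62, adjusted p = 0.0667), and among libraries without Y-linked counts both Neurod1 and Tle2 missed the threshold (2.07 and 0.64, adjusted p = 0.136 and 0.263).

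**Figure D4:**
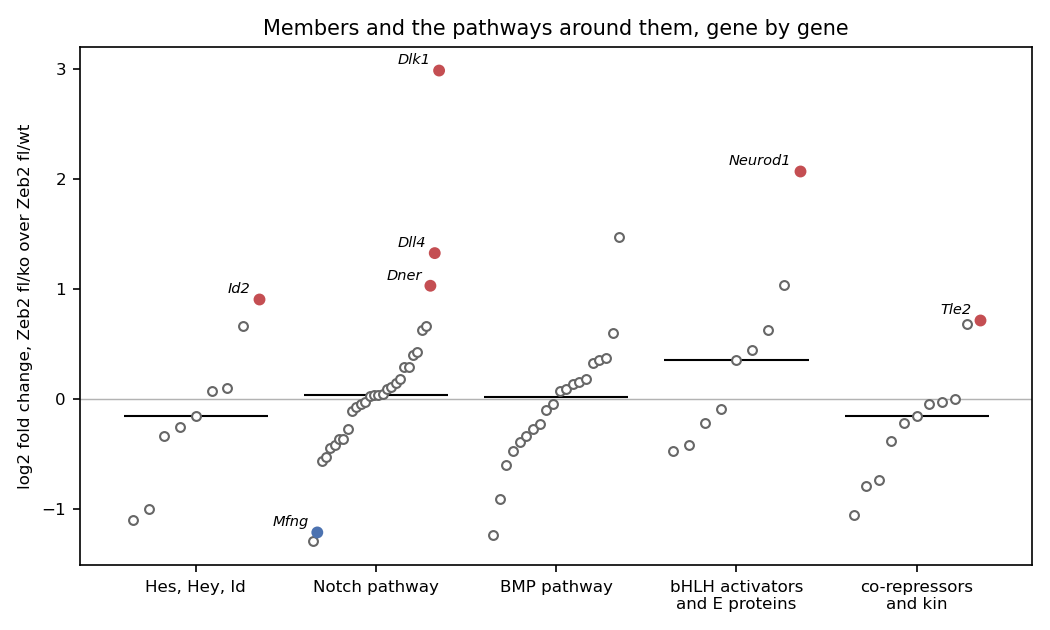
Log2 fold change, mutant over control (vertical axis), of every tested gene of the members and the pathway lists (horizontal axis, genes of a list in order of their value); filled points are past an adjusted p of 0.05, red higher and blue lower, and bars are list medians. The medians lie between -0.15 and 0.35, and Dlk1 at 2.98 and Neurod1 at 2.07 are the highest genes.

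Levels of marker genes of several cell types are given beside these values. The summed level of 7 oligodendrocyte precursor genes was 889 to 1595 CPM in mutants and 1251 to 2961 CPM in controls, highest in control 6, and all 7 had negative log2 fold changes, with 1 (Gpr17) past the threshold in edgeR and 3 (Cspg4, Gpr17 and Sox10) in DESeq2. The summed level of 10 neuronal genes was 7241 to 8636 CPM in mutants and 7072 to 8451 CPM in controls. Of the 10, 3 rose and none fell in edgeR, 4 rose in DESeq2, and 6 had positive log2 fold changes. Tubb3, the highest, averaged 3244 CPM in mutants and 3830 CPM in controls. A mean of log2(CPM + 1) gives each gene the same weight. By it the neuronal list stood at 8.45 to 8.70 in mutants and 7.87 to 8.32 in controls. The precursor list stood at 5.94 to 6.68 in mutants and 6.73 to 8.23 in controls. On this measure the groups overlapped for the radial glial and astrocyte lists. The sum for 10 radial glial genes was 1168 to 1890 CPM in mutants and 1226 to 1847 CPM in controls. Of these, 2 rose (Hopx and Pax6) and 1 fell (Vim) in both tools, and 7 of the 10 had negative log2 fold changes. The sum for 8 astrocyte genes was 359 to 662 CPM in mutants and 285 to 670 CPM in controls. Negative log2 fold changes were found for 7 of the 8. The 1 positive gene, Aldoc, had the highest level, at 305 CPM in mutants and 231 CPM in controls. The sum for 9 mural cell genes was 32.6 to 65.9 CPM in mutants and 57.4 to 252 CPM in controls, highest in control 6. This list shares Cspg4 with the precursor list and Notch3 with the Notch list, and 4 of the 9 averaged under 1 CPM. Of 10 endothelial genes 7 averaged under 1 CPM, Tek had no counts, and the sum was 28.5 to 83.2 CPM in mutants and 22.01 to 73.3 CPM in controls. Of 10 microglial genes 7 also averaged under 1 CPM, with sums of 24.5 to 45.7 CPM in mutants and 13.8 to 40.7 CPM in controls. Sums for 6 ependymal genes were 5.80 to 8.33 CPM in mutants and 5.12 to 16.6 CPM in controls. Sums for 6 choroid plexus genes were 3.91 to 215 CPM in mutants, highest in mutant 5, and 2.83 to 12.2 CPM in controls. For 6 meningeal fibroblast genes, sums were 113 to 250 CPM in mutants and 194 to 518 CPM in controls. Most of each sum was the precursor gene Pdgfra, at 107 to 245 CPM in mutants and 192 to 517 CPM in controls. Of the 6 genes 4 averaged under 1 CPM. In the astrocyte, endothelial, mural, microglial, ependymal, choroid plexus and fibroblast lists edgeR called 0 tested genes, with 1 mural and 1 fibroblast gene at an unadjusted p of 0.05. DESeq2 called 1 mural gene lower, Cspg4, and 1 fibroblast gene higher, Dcn, and limma-voom called 0. The part of these cells in the values of Id2, Id3 and Hes1 was not tested.

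As a description over the 11 libraries, with group means removed, the log2 level of Id2 followed most closely those of H3f3b, Gm12350 and Nub1 (Pearson r = 0.939, 0.934 and 0.931), and that of Hes6 those of Nelfcd, Gstm5 and Rabl6 (r = 0.933, 0.929 and 0.925). They are the highest among all 14104 tested genes over 11 libraries, a search in which high values can also arise by chance. How far chance accounts for them was not tested. None of these 6 genes was past the threshold between the groups.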

How the data were processed

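The authors deposited unnormalized counts of reads for Ensembl genes, with all 11 libraries side by side. Per the submitters' processing notes, TopHat2 2.0.13 and featureCounts 1.4.6 were used, with mm10 (GRCm38). Annotation release and strand setting were not stated, so overlapping genes on opposite strands cannot be told apart. Exons of Hes5 and Id4 overlap antisense genes of 0.212 and 0.496 CPM. Symbols, coordinates and exon lengths came from GENCODE M21 (GRCm38), and promoter sequences from RefSeq (GRCm38.p6).

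From the counts, genes were filtered with filterByExpr, scaled by TMM and tested with edgeR 4.0.16 in R 4.3.3 (robust quasi-likelihood fit on all 11 libraries, Benjamini-Hochberg adjustment over 14104 genes, threshold 0.05). The test was checked on simulated counts. Standard errors and 95% intervals were derived from the log2 fold change and the F statistic and are approximate. No pair of replicates was as alike as sampling alone gives (lowest chi-square over its degrees of freedom, 13.7). Named genes were all 10 members; in each pathway list up to 6 genes past the threshold by adjusted p, or the 2 with the highest level; and the 3 genes most correlated, on log2(CPM + 1), with the highest Id and the highest Hes or Hey member. Tle5 appears in the table as Aes. Other genes in the text were named after their values were seen. Members and lists were chosen with earlier results of these data known. Alternatives were other scalings, filters and tests (DESeq2 1.42.0 and limma-voom 3.58.1), leaving out libraries or Gm42418, a replicate block and 2 treatments of sex.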

Additional observations from a re-analysis of the deposited data

Results flagged for a closer look

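A library was noted where its distance to the nearest other library of its group took up an unusually large part of the group's range, by Dixon's 95% critical value. Of 20 combinations of member and group, 2 stood out, and chance flags about 1 in 20. Control 3 had 33.7 CPM of Id3, against 19.1 CPM in the next control, and without it the log2 fold change of Id3 was -0.74. Control 3 also had 4.54 CPM of Hey2, against 1.53 CPM in the next control, and without it the log2 fold change of Hey2 was 1.73 against 0.66 in all libraries, with neither past the threshold (edgeR adjusted p = 0.355 and 0.778).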

How the results depend on the processing

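Id2 kept a positive sign in all 25 alternatives and its call in 14 of them. The number of members past the threshold was 1 (Id2) in 13 alternatives, 3 with DESeq2 (Hes1, Id2 and Id3), 0 to 1 when 1 library was left out, and 0 with the replicate block, the Y-linked covariate or only libraries without Y-linked counts. Hes1, Id3, Hes6, Hey1, Hey2 and Id4 kept their sign in all 25. Hes5 ranged from -0.18 to 0.32 and Id1 from -0.15 to 0.27 when 1 library was left out, and in both the sign turned. The 623 genes past the threshold became 1211 with DESeq2 (666 higher, 545 lower), 186 with the Y-linked covariate (120 and 66) and 218 in libraries without Y-linked counts (150 and 68). With library weights in limma-voom 375 genes were lower, and with the replicate block 143 were lower. Leaving out 1 library gave 149 to 251 lower genes against 245. The causes were not tested, though the fit without Y-linked counts had fewer libraries. Same-numbered libraries share only a number: their deviations from the group means correlated at -0.178 to 0.0245. Among the controls, the one of the same number was not the best correlated for any mutant library. The reverse was not looked at. Under the replicate block, which uses libraries 1 to 5 of each group, Id2 was at 0.86 (edgeR adjusted p = 0.0512), and Dll4, Neurod1 and Tle2 were not past the threshold (1.28, 1.80 and 0.73). Hes1, Hey2 and Heyl had at most 88, 46 and 28 counts in a library, and how far depth limits them was not tested.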

Other observations

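Relatives of the members outside the 10 genes gave values of the same kind. Helt, a Hes- and Hey-related repressor known for GABAergic neuron fate, averaged 28.5 ± 5.04 CPM in mutants (SD, n = 5) and 28.5 ± 5.22 CPM in controls (SD, n = 6), with a 95% interval of the log2 fold change from -0.38 to 0.38. Bhlhe40 and Bhlhe41, which encode bHLH repressors of the circadian clock, were not past the threshold, with log2 fold changes of -1.05 and -0.79 (edgeR adjusted p = 0.167 and 0.509). Hes2, Hes3 and Hes7 held 0, 0 and 11 counts over the 5 mutant libraries and 4, 6 and 11 counts over the 6 control libraries, and were not tested.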
